A study of Homo sapiens with 6 samples.

Results

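The transcripts described here encode the proteins that build and steer the spliceosome, the machine that removes introns from pre-mRNA. They were taken by gene symbol, as rows whose symbol starts with HNRNP, SRSF, SNRP, SNRNP, SF3A or SF3B and whose mean over the 6 libraries was at least 1 CPM, the normalized read count scaled to library size. Of 13439 listed genes, 61 carried such a symbol and 60 reached that mean. They fell into 22 HNRNP, 10 SRSF, 12 SNRP, 7 SNRNP, 3 SF3A and 6 SF3B genes. The gene left out was SRSF12, at 0.49, 0.51 and 0.61 CPM in the DMSO libraries and 0.79, 0.58 and 0.72 CPM in the AIL libraries. The members nearest to the limit from above were HNRNPA1L2 and SF3A2, with means of 10.35 and 11.10 CPM, so no member was close to it.

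The libraries came from Saos-2, an established human osteosarcoma line, and all of them were grown in medium with 10% fetal bovine serum. The control group received DMSO, the solvent, for 24 h. The treated group received 0.20 µM AIL for 24 h, a dose the labels give as the IC50 in these cells. AIL stands for ailanthone, a plant compound of the quassinoid class found in Ailanthus altissima. Each group had 3 libraries, named as biological replicates of this 1 line, and nothing says how the cultures were kept apart, so p-values measure the spread between these libraries.

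The core of the spliceosome is a set of small nuclear ribonucleoproteins (snRNPs), each made of a short RNA, a ring of Sm proteins and proteins of its own. U1 recognises the start of an intron, U2 the branch site near its end, and the U4/U6.U5 tri-snRNP then joins to form the catalytic centre. SR proteins, encoded by the SRSF genes, bind exons and mostly favour their inclusion, while hnRNP proteins, encoded by the HNRNP genes, coat nascent RNA and often oppose it. Many SR and hnRNP proteins also limit their own mRNA by splicing it into a form that is degraded.

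Depth, read from the step that 1 read makes in the low values, was 32540000 to 35830000 TMM-scaled reads under DMSO and 35910000 to 38050000 under AIL. The groups thus did not overlap in depth, and the part of depth in the results was not tested. Mitochondrially encoded transcripts, held as a sign of RNA quality, were lower under AIL for 10 of 13 genes, and their summed level was 4205.4 to 4373.7 CPM under DMSO and 3600.5 to 3726.0 CPM under AIL. Their part in the results below was not tested. Among osteoblast markers, RUNX2 had a mean of 4.69 CPM, SPP1 and BGLAP were nearly absent at 0.20 and 0.05 CPM, and SP7, ALPL, IBSP and COL1A1 were not analysed here. Of 7 markers of other cell types, the epithelial keratin KRT8 was present at a mean of 216.3 CPM and was higher under AIL, the smooth muscle marker MYH11 was at 0.02 CPM, and 5 were not analysed here. In bulk RNA, fewer cells that express a gene and less of its RNA per cell cannot be told apart.

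The mix of these transcripts differed between the groups, while their totals overlapped. The 60 members summed to 14778.4, 14863.2 and 15029.4 CPM in the DMSO libraries and to 14963.4, 14847.2 and 14894.2 CPM in the AIL libraries. Within that total, 21 members rose and 21 fell, and 18 were not called (limma, adjusted p under 0.05). Among all 11069 genes tested, 54.1% were called, with 28.2% higher and 25.9% lower. Of the 50 members that averaged 50 CPM or more, 18 rose and 20 fell. Among the 4123 tested genes at that level the share called was 69.5%, with 32.1% higher and 37.4% lower. The count of called members was thus near that of other well-expressed genes. The groups did not overlap for 47 members, 27 with AIL higher and 20 with AIL lower. Among all tested genes that share was 60.1%, with 30.9% higher and 29.2% lower. Of the 50 more abundant members, 39 did not overlap, 20 with AIL higher and 19 with AIL lower, against 73.7% of tested genes at that level (33.5% and 40.1%).

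The changes were small. All log2 differences below are AIL minus DMSO, computed from log2(CPM + 1). They ran from -0.28 to 0.43 with a median of 0.04, against a median of 0.01 over all tested genes. The ratio of mean CPM ran from 0.823 (HNRNPR) to 1.351 (SNRPC). Before rounding, an absolute log2 difference of at least 0.25 was seen in 5 members, against 21.6% of tested genes. No member changed by 1.5-fold, a size reached by 1.69% of tested genes. The median standard error of the members was 0.0292. For the 18 members that were not called, 95% intervals lay between -0.157 and 0.255, and 14 of them stayed within 0.2 of 0 in either direction.

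**Figure D1:**
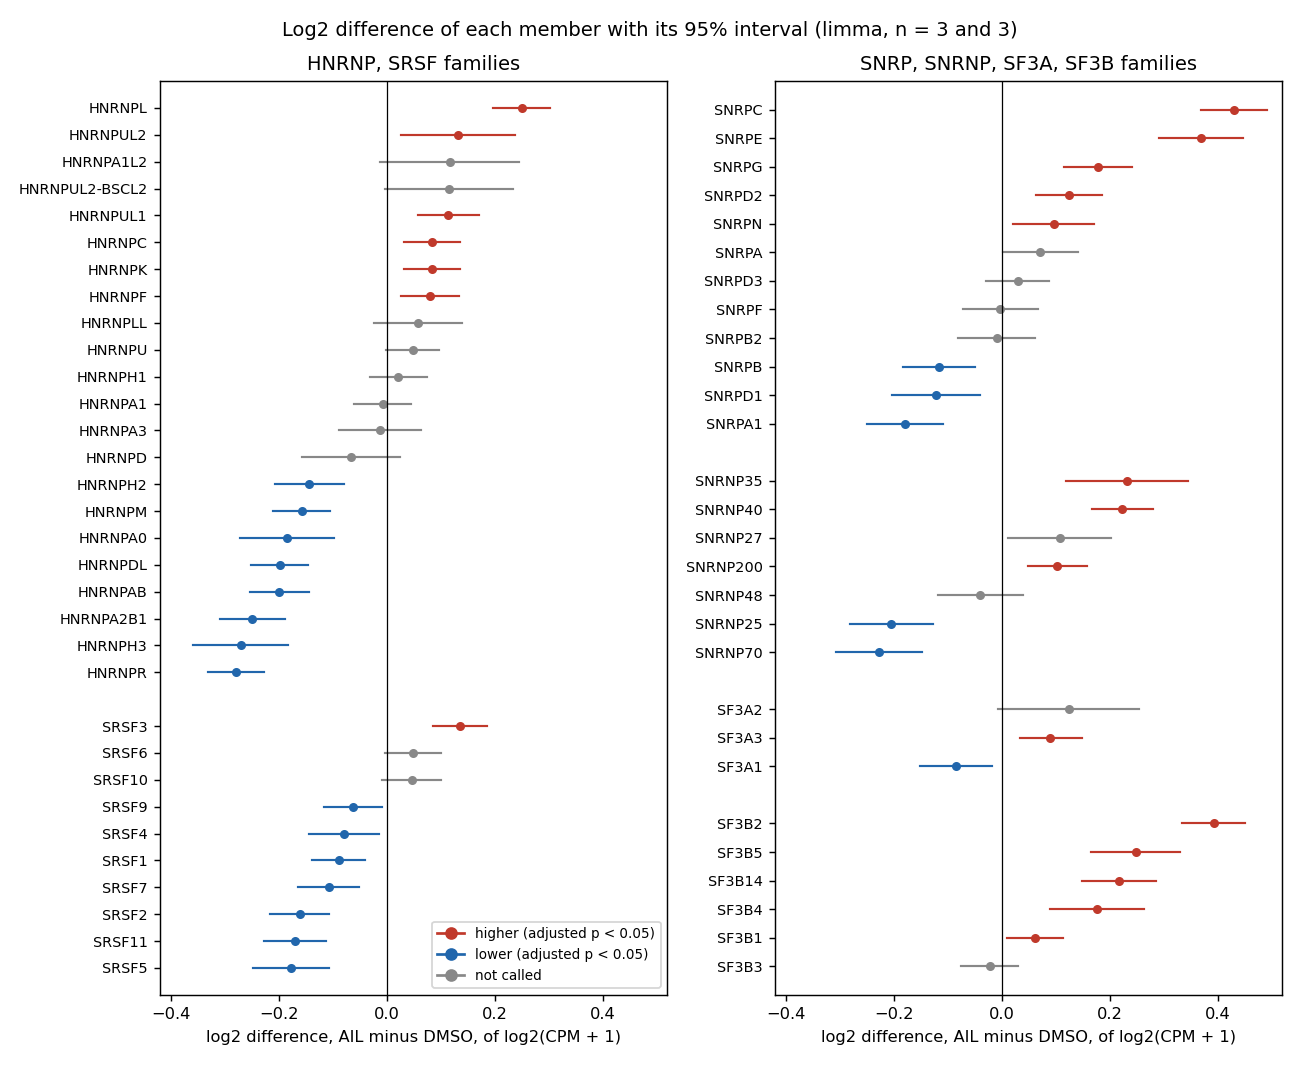
Log2 difference of each of the 60 members (points) with its 95% interval from limma (lines), by family, coloured by call; the x axis is AIL minus DMSO of log2(CPM + 1). SF3B members lie mostly to the right of 0 and SRSF members mostly to the left, while HNRNP and SNRP members lie on both sides.

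The families differed in their balance. In the SF3B family 5 of 6 genes rose and 0 fell, also at an unadjusted p under 0.05, with a family median of 0.20, and 7 of 10 SRSF genes fell, with a family median of -0.08. The HNRNP genes split into 6 higher and 8 lower around a median of 0.01 (-0.08 with quantile normalization and -0.003 with median-of-ratios scaling). The SNRP genes had 5 higher and 3 lower (median 0.05), the SNRNP genes 3 higher and 2 lower (median 0.10) and the SF3A genes 1 of each (median 0.09). With quantile normalization these counts were 4 and 1 for SF3B, 3 and 5 for SRSF, 3 and 12 for HNRNP and 1 and 0 for SF3A. With the trend over length, GC content and abundance removed they were 3 and 7 for SRSF and 6 and 11 for HNRNP, and 1 SF3B gene was called lower. Without DMSO replicate 2 the count of HNRNP genes called higher was 3. Without DMSO replicate 1 the HNRNP median was -0.007, and without AIL replicate 1 the SNRP median was 0.032. Differences between families were not tested. All SRSF and SNRP genes, 18 of 22 HNRNP and 5 of 6 SF3B genes averaged 50 CPM or more, so their counts are read against the 32.1% higher and 37.4% lower of tested genes at that level. Of the SNRNP genes 3 of 7, and of the SF3A genes 2 of 3, averaged that much. Over all tested genes, at any level, 28.2% were higher and 25.9% lower.

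In summed CPM, the SF3B family went from 1502.7, 1478.6 and 1505.9 under DMSO to 1625.3, 1580.0 and 1598.3 under AIL, a rise of 7.05% in the mean with no overlap. The SRSF family went from 2672.8, 2658.4 and 2653.8 to 2593.3, 2563.2 and 2572.9 CPM, which is a lower level in every AIL library. The HNRNP family, at 8159.4 to 8401.6 CPM under DMSO and 8163.6 to 8206.0 CPM under AIL, overlapped. These sums weigh abundant members most. The sum over all tested genes was itself 1.92% higher in the AIL mean, and that over all members 0.075% higher.

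**Figure D2:**
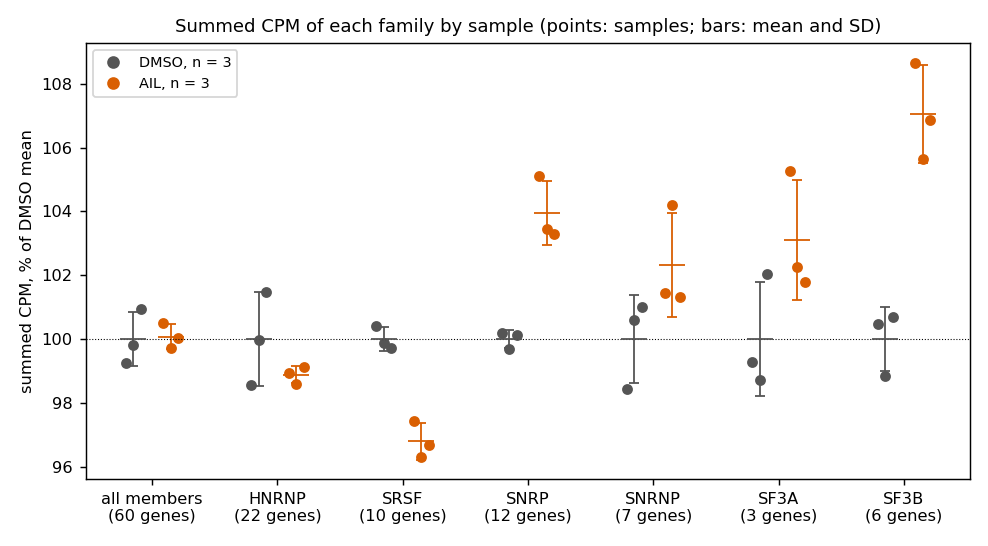
Summed CPM of all members and of each family in every library, as a percentage of the DMSO mean (points: libraries; bars: mean and SD, n = 3). The total of all members stays near 100% in both groups, the SF3B total is higher and the SRSF total lower in all 3 AIL libraries.

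**Figure D3:**
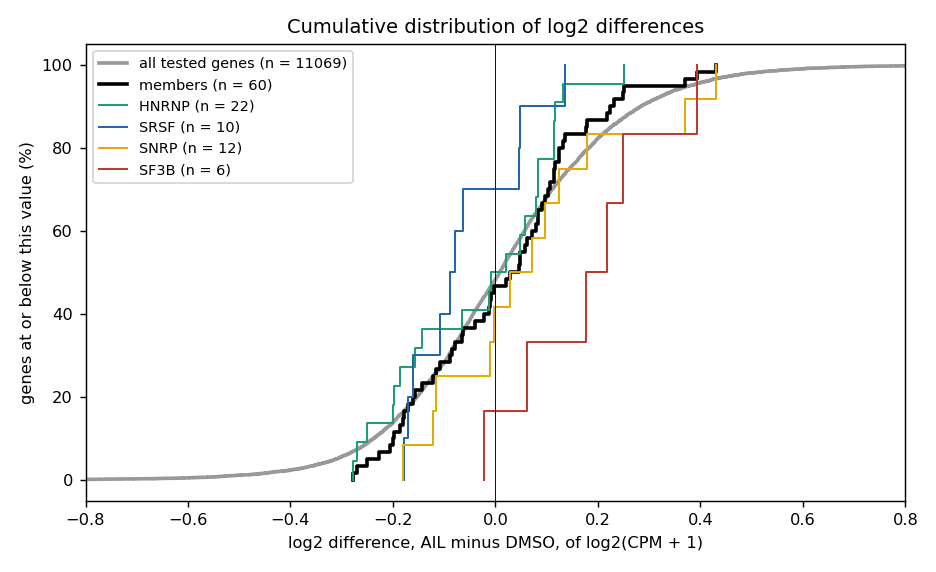
Cumulative share of genes (y axis, %) against log2 difference (x axis) for all 11069 tested genes, the 60 members and the HNRNP, SRSF, SNRP and SF3B families. The curve of all members follows that of all tested genes near its centre and lacks its outer tails.

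The SF3b complex sits in U2 and grips the branch-site adenosine. SF3B2, a subunit of this complex, had 196.35, 202.47 and 202.35 CPM under DMSO and 267.11, 268.56 and 254.67 CPM under AIL. Every AIL library lay far above every DMSO library, and the mean rose 1.315-fold (log2 difference 0.39, SE 0.0276, limma adjusted p = 3.89e-09). SF3B5, the smallest subunit, went from 50.55, 51.43 and 50.68 to 64.42, 59.50 and 58.12 CPM. SF3B14, listed under the older symbol of SF3B6, the subunit that contacts the branch adenosine, went from 94.92, 94.89 and 97.50 to 111.86, 106.77 and 115.99 CPM. SF3B4, which binds RNA beside the branch site, went from 33.12, 31.27 and 30.92 to 36.14, 35.47 and 36.45 CPM. These 3 rose without overlap, by 0.25, 0.22 and 0.18 on the log2 scale (limma adjusted p = 3.92e-05, 2.55e-05 and 0.00154).

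The 2 largest SF3b proteins moved least. SF3B1, the branch-site clamp and a frequent target of mutation in blood cancers, had 518.71, 504.61 and 516.96 CPM under DMSO and 540.05, 525.03 and 541.80 CPM under AIL. Its rise of 0.06 was the smallest called among the members (limma adjusted p = 0.0446), and it was lost when any 1 library other than AIL replicate 2 was left out (limma adjusted p = 0.0725 to 0.202). It was also lost with median-of-ratios scaling (limma adjusted p = 0.0837). SF3B3 was at 593.91 to 609.05 CPM and 584.70 to 605.73 CPM, a difference of -0.02 with a 95% interval of -0.075 to 0.029. It was called lower with quantile normalization (-0.08) and with the trend over length, GC content and abundance removed (-0.094, limma adjusted p = 2.17e-05). PHF5A, the remaining subunit of SF3b and no member by its symbol, was at 68.5 ± 3.12 CPM under DMSO and rose to 96.5 ± 1.44 CPM (SD, n = 3, log2 difference 0.49, adjusted p = 4.17e-09 by limma).

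SF3a is the other multi-protein part of U2. SF3A3 was at 179.79, 179.01 and 184.99 CPM under DMSO and 197.88, 189.77 and 191.51 CPM under AIL, a rise of 0.09 (limma adjusted p = 0.00944). SF3A1 was at 76.94, 75.55 and 78.22 CPM and then 72.72, 73.62 and 70.98 CPM, a log2 difference of -0.085 (limma adjusted p = 0.0290). Neither gene's groups overlapped, but both calls depended on single libraries. SF3A3 was not called without DMSO replicate 2 or AIL replicate 1 (limma adjusted p = 0.0532 and 0.0595), nor SF3A1 without DMSO replicate 1 or 3 or AIL replicate 1 or 3 (limma adjusted p = 0.0607 to 0.104). SF3A2 was low, at 10.58 ± 0.476 and 11.62 ± 0.627 CPM, and was not called (limma adjusted p = 0.103). Of the U2-specific SNRP proteins, which bind the U2 RNA as a pair, SNRPA1 fell from 54.45, 53.94 and 55.28 to 47.83, 48.19 and 48.12 CPM (log2 difference -0.18, limma adjusted p = 2.15e-04) and SNRPB2 overlapped at 78.94 to 83.06 and 78.68 to 83.35 CPM. Counting all of U2, 6 of 11 members rose and 2 fell. Of these 11, 9 averaged 50 CPM or more, where 32.1% of tested genes were higher and 37.4% lower.

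U1 pairs with the 5′ splice site through its RNA. Of its 3 specific proteins, 1 rose, 1 fell and 1 was not called. All 3 averaged 50 CPM or more, where 32.1% of tested genes were higher and 37.4% lower. SNRPC, which steadies that pairing, had 95.78, 95.38 and 98.96 CPM under DMSO and 131.10, 128.11 and 132.61 CPM under AIL. This was the largest rise of any member (log2 difference 0.43, SE 0.0289, limma adjusted p = 2.23e-09), and every AIL library exceeded every DMSO library. SNRNP70, the U1-70K protein that SR proteins contact, fell from 156.28, 162.97 and 159.54 to 136.12, 145.48 and 127.51 CPM. Its AIL libraries were spread more widely than its DMSO libraries but stayed below them (log2 difference -0.23, SE 0.0377, limma adjusted p = 6.96e-05). SNRPA, which binds a U1 stem-loop, was at 84.87 to 86.68 and 85.99 to 92.86 CPM and was not called (limma adjusted p = 0.0781), but passed with the replicate number as a block (limma adjusted p = 0.0370) and without AIL replicate 3 (limma adjusted p = 0.00458). It also passed with quantile normalization (0.094, limma adjusted p = 0.0239).

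The Sm ring is shared by U1, U2, U4 and U5 and closes around their RNA. Of 8 members here, 4 rose and 2 fell. All 8 averaged 50 CPM or more, where 32.1% of tested genes were higher and 37.4% lower. SNRPE went from 96.94, 95.44 and 100.80 to 123.00, 121.92 and 134.81 CPM, a 1.295-fold rise (log2 difference 0.37, SE 0.0367, limma adjusted p = 2.32e-07). SNRPG, its neighbour in the ring, went from 122.20, 121.26 and 123.51 to 135.57, 136.38 and 143.94 CPM (log2 difference 0.18, limma adjusted p = 6.64e-05). SNRPF, which binds both of them before they are loaded on RNA, was not called. It was at 73.56, 77.70 and 78.00 CPM and then 75.01, 77.00 and 76.64 CPM, with a 95% interval of -0.072 to 0.066.

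The D and B subunits of the ring also went apart. SNRPD2 rose from 158.74, 161.55 and 159.12 to 178.96, 176.38 and 167.62 CPM (log2 difference 0.12, limma adjusted p = 0.00150). Its partner SNRPD1 was at 120.14, 129.98 and 132.02 CPM and then 117.11, 111.33 and 122.36 CPM, so the groups overlapped although it was called lower (log2 difference -0.12, limma adjusted p = 0.0122). That call was lost without DMSO replicate 2, DMSO replicate 3 or AIL replicate 2 (limma adjusted p = 0.0600, 0.0693 and 0.0807). SNRPB fell from 386.2 ± 9.32 to 356.5 ± 17.0 CPM (limma adjusted p = 0.00495; 0.0569 without an intensity trend), and SNRPD3, its partner, was not called at 117.5 ± 1.42 and 119.9 ± 1.92 CPM. SNRPN, the imprinted paralog of SNRPB, was called higher at 83.6 ± 3.45 and 89.4 ± 2.85 CPM (limma adjusted p = 0.0296), with overlapping groups. Without DMSO replicate 3, AIL replicate 1 or AIL replicate 2 it was not called (limma adjusted p = 0.169, 0.118 and 0.0870), and 25.8% of its 50-base words also occur in other annotated genes.

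In the tri-snRNP, SNRNP40, a WD-repeat protein of U5, rose from 136.37, 138.54 and 135.43 to 157.22, 160.27 and 162.10 CPM (log2 difference 0.22, limma adjusted p = 2.0e-06). SNRNP200, the helicase that unwinds U4 from U6, rose less, from 250.03, 253.32 and 262.40 to 271.50, 276.91 and 273.91 CPM (log2 difference 0.10, limma adjusted p = 0.00291). SNRNP27 was not called (33.7 ± 1.00 and 36.4 ± 2.05 CPM, limma adjusted p = 0.0559), but passed with the replicate block (limma adjusted p = 0.0263) and without DMSO replicate 3 or AIL replicate 1 (limma adjusted p = 0.0490 and 0.0169). It also passed with the trend over length, GC content and abundance removed (0.122, limma adjusted p = 0.00868). The minor spliceosome removes a rare class of introns, and its 3 members here went apart. SNRNP35 rose from 16.41, 18.01 and 16.58 to 20.58, 20.60 and 19.19 CPM, SNRNP25 fell from 52.36, 53.67 and 53.38 to 46.60, 47.25 and 44.14 CPM, and SNRNP48 overlapped at 40.13 to 41.16 and 38.54 to 40.32 CPM. The differences of SNRNP35 and SNRNP25 were 0.23 and -0.205 on the log2 scale (limma adjusted p = 0.00148 and 1.51e-04).

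SR proteins carry an RNA-binding part and a tail of arginine-serine repeats whose phosphorylation governs where they act. SRSF5 fell from 157.14, 160.64 and 164.54 to 146.79, 144.92 and 134.42 CPM (log2 difference -0.18, SE 0.0331, limma adjusted p = 2.10e-04). SRSF11, a relative that associates with U2AF, fell from 166.33, 162.24 and 164.06 to 143.16, 144.67 and 149.63 CPM (log2 difference -0.17). SRSF2, also called SC35 and a marker of nuclear speckles, fell from 349.28, 344.64 and 331.22 to 306.80, 305.33 and 304.21 CPM (log2 difference -0.16). In each of these every AIL library lay below every DMSO library, and limma adjusted p-values for SRSF11 and SRSF2 were 5.19e-05 and 5.00e-05.

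SRSF3, the smallest classical SR protein, was the one member of its family called higher. It went from 420.41, 415.08 and 420.41 to 464.18, 454.84 and 460.74 CPM (log2 difference 0.14, SE 0.0234, limma adjusted p = 1.06e-04). Its close relative SRSF7 fell from 219.73, 213.25 and 212.20 to 203.77, 194.55 and 200.20 CPM (log2 difference -0.11, limma adjusted p = 0.00277). SRSF1, the founding member, was steady under DMSO at 639.47, 641.43 and 640.22 CPM and was at 608.89, 596.03 and 600.65 CPM under AIL (log2 difference -0.09, limma adjusted p = 0.00339). Of the 50-base words of SRSF1, 50.8% occur in another annotated gene. SRSF4 and SRSF9 were called lower by 0.08 and 0.06 without overlap (limma adjusted p = 0.0398 and 0.0441). Leaving out DMSO replicate 1 or 2 or AIL replicate 1 ended both calls, AIL replicate 3 also that of SRSF4, and DMSO replicate 3 or AIL replicate 2 also that of SRSF9 (limma adjusted p = 0.0709 to 0.156 and 0.0642 to 0.156). SRSF6 and SRSF10 were not called, with intervals of -0.004 to 0.1 and -0.009 to 0.101, and both were called higher with quantile normalization (0.08 and 0.07). Both were also called higher with the trend over length, GC content and abundance removed (0.110 and 0.081, limma adjusted p = 7.97e-05 and 0.00152).

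Among hnRNP proteins, the A/B and D group, RNA chaperones with paired RNA-recognition motifs, had 4 of 8 members that fell and 0 that rose, also at an unadjusted p under 0.05. Of these 8, 7 averaged 50 CPM or more, where 37.4% of tested genes were lower and 32.1% higher. The count of 0 did not hold without an intensity trend, where HNRNPA1L2 was called higher (0.116, limma adjusted p = 0.0435). The summed level of the group was 2821.3 to 2938.5 CPM under DMSO and 2626.8 to 2671.4 CPM under AIL. HNRNPA2B1 fell from 771.16, 821.80 and 810.26 to 651.96, 681.82 and 686.47 CPM (log2 difference -0.25, SE 0.0287, limma adjusted p = 1.28e-06). HNRNPAB went from 270.19, 271.63 and 260.17 to 232.47, 233.81 and 231.61 CPM and HNRNPDL from 399.24, 404.58 and 413.37 to 354.05, 347.18 and 358.82 CPM, both lower by 0.20. HNRNPA0 fell as well, from 81.6 ± 4.71 to 71.5 ± 3.09 CPM (limma adjusted p = 0.00103). HNRNPA1, the most abundant member by CPM, stayed at 1093.43 to 1141.95 and 1098.28 to 1112.99 CPM, with an interval of -0.061 to 0.044. With quantile normalization, however, HNRNPA1 was called lower (-0.155). It was also called lower with the trend over length, GC content and abundance removed (-0.107, limma adjusted p = 2.05e-05).

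HNRNPA3, HNRNPD and HNRNPA1L2 were not called, at log2 differences of -0.01, -0.07 and 0.12. HNRNPD passed without AIL replicate 3 (-0.12, limma adjusted p = 0.00356) and with the trend over length, GC content and abundance removed (-0.088, limma adjusted p = 0.0491). Of the 50-base words of HNRNPA1L2, 58.5% occur in other genes, HNRNPA1 and its pseudogenes among them, and for HNRNPA1 itself the share was 22.8%. Reads from such words may be shared between genes, and how far this affects the levels was not tested. The same holds for HNRNPA3 (16.5%), SNRPB (15.7%), HNRNPH2 (15%), SNRPE and SNRPA1 (11.7% each) and HNRNPL (11.2%).

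The F and H group binds runs of guanine. HNRNPH3 fell from 82.44, 90.87 and 94.04 to 70.88, 74.34 and 75.55 CPM (log2 difference -0.27, SE 0.0419, limma adjusted p = 3.44e-05). HNRNPH2 fell from 86.4 ± 1.28 to 78.1 ± 1.12 CPM (limma adjusted p = 6.20e-04). HNRNPH1 overlapped at 690.8 ± 14.3 and 701.0 ± 10.1 CPM but was called lower with quantile normalization (-0.09). It was also called lower with the trend over length, GC content and abundance removed (-0.056, limma adjusted p = 0.0104). HNRNPF was called higher by 0.08 (limma adjusted p = 0.0144), and this was lost without DMSO replicate 1, DMSO replicate 2 or AIL replicate 1 (limma adjusted p = 0.0707, 0.0629 and 0.0767).

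In the remaining hnRNP genes, HNRNPL, which binds CA repeats, rose from 290.53, 285.62 and 288.13 to 350.50, 343.07 and 334.90 CPM (log2 difference 0.25, SE 0.0253, limma adjusted p = 2.80e-07). Its paralog HNRNPLL was not called, with an interval of -0.024 to 0.140. With the trend over length, GC content and abundance removed HNRNPLL was called higher (0.096, limma adjusted p = 0.0129). HNRNPR fell from 341.44, 353.78 and 350.47 to 285.82, 286.03 and 289.14 CPM, the lowest log2 difference of any member (-0.28, SE 0.0246, limma adjusted p = 5.41e-08). HNRNPM fell from 287.4 ± 5.69 to 257.4 ± 1.25 CPM (limma adjusted p = 4.17e-05). HNRNPUL1 rose from 182.1 ± 0.692 to 197.2 ± 5.51 CPM (limma adjusted p = 0.00183). HNRNPUL2 was called higher (0.13, limma adjusted p = 0.0346), but not without DMSO replicate 1 or AIL replicate 2 (limma adjusted p = 0.245 and 0.0917). It shares 43.2% of its words with the read-through gene HNRNPUL2-BSCL2. Of that gene's own words, 98.8% occur in HNRNPUL2 or BSCL2, so it may share reads with HNRNPUL2, though each is counted as a member. HNRNPUL2-BSCL2 was not called (0.115, limma adjusted p = 0.0925), but its AIL libraries lay above its DMSO libraries without overlap.

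HNRNPC, which sorts transcripts by length and masks cryptic exons, was called higher at 1002 ± 12.9 CPM under DMSO and 1062 ± 22.1 CPM under AIL (0.083, limma adjusted p = 0.00912). HNRNPK, which binds runs of cytosine, was called higher at 929.9 ± 12.6 and 984.9 ± 19.1 CPM (0.083, limma adjusted p = 0.00919). Quantile normalization turned both to the other side of 0 (-0.034, not called, and -0.075, called lower). With the trend over length, GC content and abundance removed, HNRNPC was at 0.002 (limma adjusted p = 0.902) and HNRNPK stayed called (0.047). Without an intensity trend neither was called (limma adjusted p = 0.0613 and 0.0616). Without DMSO replicate 2 neither was called (limma adjusted p = 0.0653 and 0.0560). HNRNPU, a nuclear matrix protein, did not pass at 975.7 ± 11.6 and 1009 ± 4.80 CPM (limma adjusted p = 0.0938), passed as higher with the replicate block (limma adjusted p = 0.0273) and as lower with quantile normalization (-0.10). With median-of-ratios scaling HNRNPC, HNRNPK and HNRNPU stayed above 0 (0.074, 0.073 and 0.039).

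**Figure D4:**
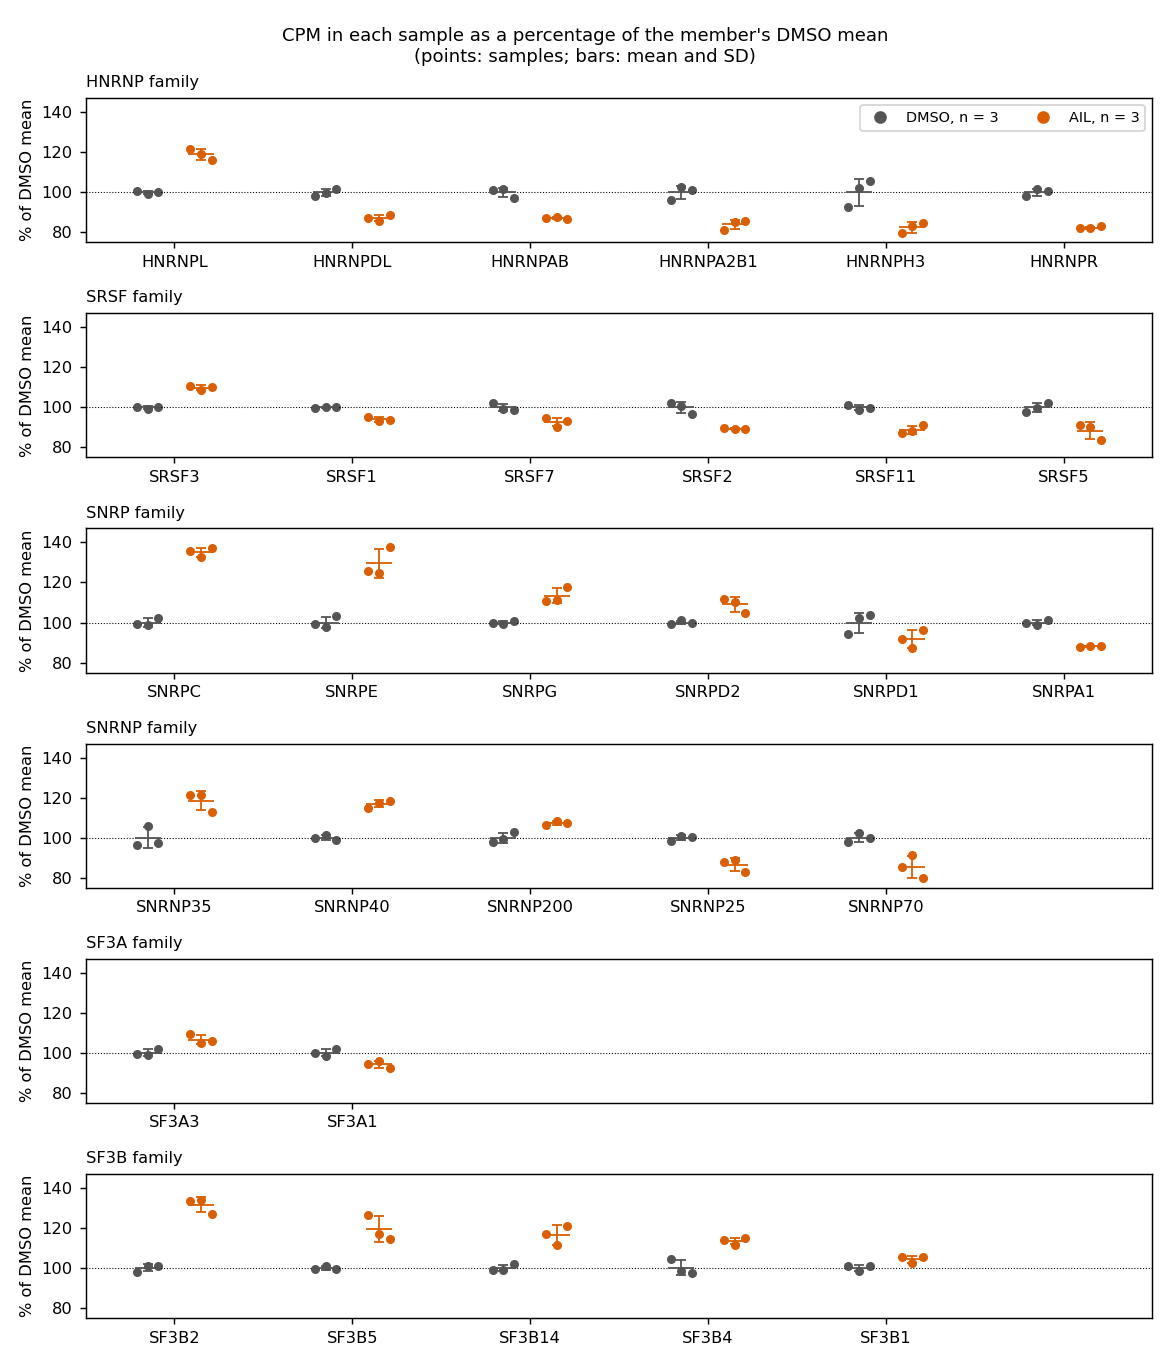
CPM in every library as a percentage of the member's DMSO mean, for up to 6 called members of each family with the largest log2 differences (points: libraries; bars: mean and SD, n = 3). The AIL libraries of SNRPC, SNRPE and SF3B2 lie above 120%, and those of several members, HNRNPR and HNRNPH3 among them, below 90%. Only SNRPD1 has overlapping groups among the members shown.

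Promoter sequence is shown for the members that moved most in either direction, so that the letters before their starts can be set side by side. RefSeq promoter windows (GRCh38.p14, 250 bases before to 50 after the start) were matched for 55 of 60 members, not for HNRNPA1, SF3B3, SNRNP35, SNRPD1 and SRSF2. The last 120 bases before the start follow for the 3 called members with the highest and the 3 with the lowest log2 differences among those with a single window, with capitals for matches to the motifs searched.
SNRPC (higher, chr6:34757385-34757504, + strand): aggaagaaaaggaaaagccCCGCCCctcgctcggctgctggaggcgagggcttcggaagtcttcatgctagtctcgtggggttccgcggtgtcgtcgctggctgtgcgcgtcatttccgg
SF3B2 (higher, chr11:66052244-66052363, + strand): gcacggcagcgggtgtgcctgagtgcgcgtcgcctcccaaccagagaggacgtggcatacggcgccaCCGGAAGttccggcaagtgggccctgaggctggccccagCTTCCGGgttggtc
SNRPE (higher, chr1:203861727-203861846, + strand): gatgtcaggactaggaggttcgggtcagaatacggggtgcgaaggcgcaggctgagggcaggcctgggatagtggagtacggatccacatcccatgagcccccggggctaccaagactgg
HNRNPR (lower, chr1:23344285-23344404, - strand): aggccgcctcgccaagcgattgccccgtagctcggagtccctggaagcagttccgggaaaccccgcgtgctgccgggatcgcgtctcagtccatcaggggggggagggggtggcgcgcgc
HNRNPA2B1 (lower, chr7:26200747-26200866, - strand): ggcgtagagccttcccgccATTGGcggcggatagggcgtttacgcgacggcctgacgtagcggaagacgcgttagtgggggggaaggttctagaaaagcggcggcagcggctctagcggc
SNRNP70 (lower, chr19:49085331-49085450, + strand): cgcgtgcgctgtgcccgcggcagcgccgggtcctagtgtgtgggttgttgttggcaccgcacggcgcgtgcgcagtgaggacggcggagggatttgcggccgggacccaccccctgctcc

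These 6 stretches were rich in G and C, from 62.5% (SNRPE) to 73.3% (SNRNP70), and held 6 to 16 CpG pairs. Over the whole 300-base windows, the median GC content was 62.3% for members and 65.0% for tested genes with a window. It was 61.5% for members that rose and 66.3% for those that fell, and the ranges of 49.3 to 70.3% and 48.7 to 74.7% overlapped widely.

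The 8 motifs were searched on both strands as exact letters, overlaps included, and a gene counted if any of its windows held a match. The ETS motif CCGGAAG, marked at 2 places in SF3B2, occurred in 20 of 55 members, against 24.4% of tested genes and 12.2% of all RefSeq genes with a window. By family it was in 7 of 11 SNRP, 3 of 3 SF3A, 3 of 5 SF3B and 2 of 6 SNRNP genes, but in 3 of 21 HNRNP and 2 of 9 SRSF genes. Among called members it was found in 10 of 20 that rose and 5 of 19 that fell.

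The CCAAT box, marked in HNRNPA2B1 in its reverse form ATTGG, was in 29 of 55 members, against 43.9% of tested genes and 39.7% of all. By family it was in 18 of 21 HNRNP, 5 of 11 SNRP, 4 of 6 SNRNP, 1 of 9 SRSF, 1 of 5 SF3B and 0 of 3 SF3A genes. It was in 11 of 20 members that rose and 9 of 19 that fell. The GC box GGGCGG, marked in SNRPC in its reverse form CCGCCC, was in 39 of 55 members, against 79.0% of tested genes and 48.3% of all.

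The other motifs were rarer. CACGTG, the MYC-type E-box, was in 9 members, 7 of them HNRNP genes (12.8% of tested genes and 8.77% of all). TATAAA, the TATA box, was in 7 members (7.6% and 14%) and GCGCATGCG, the NRF1 motif, in 3 (4.63% and 2.34%). The YY1 motif and TGATGNAA, the ATF4 motif, were in 1 member each (3.71% and 1.46% for YY1, 2.63% and 4.46% for ATF4). A match describes letters only, and genes with more windows have more places for one.

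Some members start beside another gene that points the other way. There were 21 such members with a neighbour within 1000 bases. The neighbour was tested in 15 pairs, and both genes were called in 6. Of these 6 pairs, 1 went in the same direction, HNRNPUL2 with TTC9C. Over all tested genes 54.1% were called, 28.2% higher and 25.9% lower, and neighbours of other genes were not examined. The calls of HNRNPUL2 and SRSF9 depended on single libraries, as given above. HNRNPA2B1, which shares a CpG island with the chromatin gene CBX3, fell by 0.25, while CBX3 was not called (-0.01). SNRNP40 rose by 0.22 and its neighbour ZCCHC17 fell by 0.14, and SRSF9 was lower by 0.06 and DYNLL1 higher by 0.35. SNRPD2 was higher by 0.12 and QPCTL lower by 0.36.

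Annotated transcript length moved weakly with the response. Across the 60 members, Spearman's rho between the log2 difference and the median length of annotated protein-coding transcripts was -0.16 (Pearson's r -0.19), and across 10947 tested genes it was -0.10 (r -0.08); genes are not independent, and no test was made. This median takes in every annotated protein-coding transcript of a gene, short ones included, and was 723 bases for SF3B1 and 491 for SF3B3. It need not be the length of the transcripts expressed here. Of 16 members with a median under 1000 bases, 7 rose and 3 fell, and of 44 longer members, 14 rose and 18 fell. Among all tested genes, 34.8% of the short and 26.1% of the longer ones rose, and 23.4% and 26.9% fell. With the trend over length, GC content and abundance removed from each library, an alternative chosen after the data were seen, 23 members were higher and 25 lower.

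Other genes of the splicing pathway, from 10 lists of genes outside these symbol families, were read in the same way. Of 168 tested, 63 rose and 38 fell, with a median of 0.04. The shares over all tested genes were 28.2% higher and 25.9% lower, and over those at 50 CPM or more, as 115 of the 168 were, 32.1% and 37.4%. Among U5 and U4/U6 proteins 10 of 15 were higher and 1 lower (median 0.09). They included NHP2L1, the U4 RNA-binding protein now named SNU13, which rose from 101.2 ± 2.85 to 130.1 ± 2.40 CPM, and the U5 GTPase EFTUD2, at 203.5 ± 5.02 and 246.9 ± 5.70 CPM (SD, n = 3, adjusted p = 2.85e-08 and 2.27e-07 by limma). Among other U2 recruitment and branch-site factors 5 of 14 rose and 6 fell, with PHF5A highest and HTATSF1, which binds SF3B1, lower by 0.26. For the LSm ring of U6 and its relatives, 5 of 11 rose and 1 fell, LSM12 and LSM4 by 0.29 and 0.21. In the PRP19 complex and catalytic factors 8 of 21 rose and 3 fell, with SNW1 and CWC27 up by 0.42 and 0.43.

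SR-related proteins and SR kinases had 5 of 17 higher and 5 lower, and the splicing coactivator SRRM1 and ACIN1 rose by 0.37 and 0.26. Among other splicing regulators, 7 of 34 rose and 14 fell. PTBP1, which represses exons through pyrimidine tracts, rose from 312.0 ± 3.14 to 417.9 ± 13.0 CPM, and RBFOX2, which binds GCAUG, fell from 207.7 ± 1.38 to 165.0 ± 2.94 CPM (limma adjusted p = 1.06e-09 and 1.35e-08). Sm ring assembly had 6 of 17 higher and 1 lower, with PRMT5, which methylates Sm proteins, up by 0.33 and TGS1, which further methylates the cap of snRNAs, down by 0.25. Nonsense-mediated decay, which degrades mRNAs with early stop codons, had 7 of 11 genes higher, with SMG5 and SMG1 up by 0.31 and 0.20. It had 0 lower by limma, 1 at an unadjusted p under 0.05 and 1 with the replicate block. The exon junction and export list had 7 of 19 higher and 7 lower, with NCBP1 down by 0.27 and THOC1 up by 0.22, and the other minor spliceosome genes had 3 of 9 higher and 0 lower (0 also unadjusted, 1 with quantile normalization), with PDCD7 and ZCRB1 up by 0.34 and 0.12.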

How the data were processed

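RNA-seq of 6 Saos-2 libraries was analysed, 3 treated with DMSO and 3 with AIL. The authors deposited TMM-normalized CPM (per the file name; normalized read counts scaled to library size) for 13439 genes, printed to 2 decimals. RSEM and edgeR 3.8.5 are named in the submitters' processing notes without a role. The aligner, genome build, annotation and strandedness of counting were not given in the sources used here. Near-identical, overlapping or antisense genes may thus share reads. Per the labels' protocols, 1 µg of total RNA with RIN above 8.0 entered an Illumina TruSeq preparation.

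Low values stepped by whole reads. For values of at most 2000 reads, 99.95 to 99.98% fell within 0.2 of an integer but only 52.4 to 65.1% within 0.1, so no count test was run. TMM scaling cannot show a shift shared by nearly all transcripts.

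Genes averaging 1 CPM or more (11069) were fitted with limma 3.58.1 (R 4.3.3) on log2(CPM + 1), with an intensity trend, two-sided, with Benjamini-Hochberg adjustment over all of them. An adjusted p under 0.05 is a call. The limma script was tested on simulated data. Any member could be named. Values in every library are given for up to 6 called members of each family with the largest log2 difference, and up to 2 called genes with the smallest p are named from each other list. TTC9C, CBX3, ZCCHC17, DYNLL1 and QPCTL were named as neighbours, after their values were seen. The members and lists were chosen with earlier results of these data known. The result for 1 marker gene is not reported here. Shared 50-base words and lengths come from GENCODE 29 and promoters from RefSeq.

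Same-numbered DMSO and AIL libraries deviated together (correlations of 0.159, 0.133 and 0.129 for replicates 1, 2 and 3, against -0.179 to 0.021 for unlike numbers), so the replicate numbers were taken as pairs from the data alone, and a fit with that block was an alternative. The others were pseudocounts of 0.1 and 5, a minimum of 5 CPM or none, median-of-ratios scaling, quantile normalization, no intensity trend, leaving out each library, and removal of the trend over length, GC content and abundance.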

Additional observations from a re-analysis of the deposited data

How the results depend on the processing

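Of the 42 called members, 30 kept their call and direction in all 15 alternatives. The count of members called higher was 21 and ran from 16 to 21 when 1 library was left out, and the count called lower was 21 and ran from 18 to 20. With the replicate block 24 were higher and 21 lower, no called member lost its call, and HNRNPU, SNRNP27 and SNRPA were gained. Without an intensity trend 15 were higher and 16 lower. The HNRNP median moved from 0.006 to -0.081 with quantile normalization and to -0.027 with the trend over length, GC content and abundance removed. The SRSF median (-0.084) was -0.068 and the SNRP median (0.050) was 0.075 with quantile normalization. With the trend removed, the SF3A median (0.090) was 0.048 and the SF3B median (0.197) was 0.174. With 1 library left out, the medians ran from -0.007 to 0.024 (HNRNP), -0.096 to -0.077 (SRSF), 0.032 to 0.071 (SNRP), 0.069 to 0.123 (SNRNP), 0.073 to 0.105 (SF3A) and 0.178 to 0.218 (SF3B), so the sign of the HNRNP median was not stable. The count of HNRNP genes called higher ran from 3 to 6.

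Quantile normalization changed the sign of HNRNPC (-0.034), HNRNPK (-0.075), HNRNPH1 (-0.087), HNRNPU (-0.096), HNRNPA3 (0.008), SNRPB2 (0.009) and SNRPF (0.012), of which HNRNPC and HNRNPK were called before. Removal of the trend changed that of HNRNPA3 (0.032), HNRNPH1 (-0.056), SNRNP48 (0.003), SNRPB2 (0.046) and SNRPF (0.016). With 1 library left out, HNRNPA1 ran from -0.022 to 0.010, HNRNPA3 from -0.047 to 0.020, SNRPB2 from -0.037 to 0.010 and SNRPF from -0.030 to 0.011, and these 4 were not called with all libraries. The cause was not tested.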
